A study of Mus musculus with 13 samples.

Results

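Natural killer (NK) cells are innate lymphocytes that kill infected or transformed cells and secrete interferon-gamma, and IL-12, IL-18 and IL-21 are cytokines that drive or tune that secretion. IL-12 binds a receptor of the chains IL-12Rβ1 and IL-12Rβ2, which acts through the transcription factor STAT4, while IL-18 binds IL-18Rα and recruits the accessory chain IL-18Rβ, which signals through MyD88 to NF-κB. Interferon-gamma acts on cells that carry the binding chain IFNGR1 and the signalling chain IFNGR2, and IL-21 acts through IL-21R paired with the common gamma chain. The genes described here are the 9 that encode these chains and their close neighbour: Il18r1, Il18rap, Il1rl1, Il12rb1, Il12rb2, Stat4, Il21r, Ifngr1 and Ifngr2. They were chosen by Ensembl identifier, and all 9 were found among the 54532 gene identifiers of the count files.

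RNA was sequenced from sorted mouse NK cells in 13 libraries, all of strain C57BL/6J and age 8 to 10 weeks. The groups were liver-resident NK cells (LrNK) labelled CD8KO (3 libraries), LrNK cells of wild type (B6, 4 libraries), conventional NK cells (cNK) labelled CD8KO (3 libraries) and cNK cells of wild type (B6, 3 libraries). The labels name liver lymphocytes as the source of LrNK cells and splenocytes as the source of cNK cells, so cell type and organ cannot be told apart in any comparison of LrNK with cNK. The labels do not name the CD8 gene or allele that was disrupted, the sort gates, or separate animals, so p-values measure only the spread between these samples, which may be technical.

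In LrNK labelled CD8KO, libraries 2 and 3 agreed far more closely than any other pair of their group, as did libraries 2 and 4 of LrNK B6. Each pair was summed and counted as 1 sample (2+3 and 2+4), which left 2, 3, 3 and 3 samples in LrNK CD8KO, LrNK B6, cNK CD8KO and cNK B6. Library totals were 35910292 to 47655853 counts in LrNK CD8KO, 30578631 to 42986589 in LrNK B6, 48600875 to 59670243 in cNK CD8KO and 53519657 to 72716020 in cNK B6. LrNK libraries stood apart in how many genes had counts. Replicate 1 of LrNK CD8KO (15797 genes) and replicates 1 and 3 of LrNK B6 (15159 and 13917) had fewer than 16000, whereas the other LrNK libraries had 19896 to 22921 and the cNK libraries 22250 to 22778. The biological coefficient of variation that edgeR estimated was 98.2% within LrNK groups and 9.60% within cNK groups, so each comparison was fitted on its own groups. A fit of LrNK against cNK still shared 1 spread between the cell types, at 41.9% under CD8KO and 63.7% under B6. Errors and p-values of those comparisons therefore rest on a spread that matches neither cell type. Levels are given as CPM, a gene's counts scaled to a common library total, and a gene is called at an edgeR adjusted p under 0.05 over all genes tested.

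Transcripts of Cd8a, the gene of CD8α, were present under the label CD8KO. It had 41.6 and 43.7 CPM in LrNK CD8KO, against 20.5, 20.1 and 20.5 CPM in LrNK B6. In cNK CD8KO it had 87.3, 85.9 and 109 CPM, against 0.568, 0.578 and 0.561 CPM in cNK B6. Cd8b1, the beta chain gene, was at most 0.548 CPM in any sample. Cd8a was thus higher in the libraries labelled CD8KO in both cell types, and the labels do not say which part of which CD8 gene was changed. Whether the labels were exchanged was not tested. An exchange would turn round every direction of CD8KO over B6 given here, within the cell type it touched.

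The cells mostly carried the markers of their labels. A list of 10 liver-resident genes summed to 1755 to 2248 CPM in LrNK CD8KO and 2448 to 3362 CPM in LrNK B6. In cNK CD8KO its sum was 856 to 923 CPM and in cNK B6 780 to 875 CPM. Klrc1 of that list went the other way under CD8KO, with means of 396 CPM in LrNK and 537 CPM in cNK. Under B6 it averaged 661 CPM in LrNK and 505 CPM in cNK. The liver-resident markers Itga1 and Cxcr6 averaged 143 and 159 CPM in LrNK CD8KO and 268 and 262 CPM in LrNK B6, against 18.2 and 3.14 CPM in cNK CD8KO and 10.7 and 3.83 CPM in cNK B6. The conventional NK markers Eomes and Itga2 averaged 7.83 and 18.3 CPM in LrNK CD8KO and 2.30 and 28.1 CPM in LrNK B6, against 699 and 389 CPM in cNK CD8KO and 658 and 397 CPM in cNK B6. Summed over 10 NK genes, among them Ncr1, Klrb1c and Gzma, the level was 4713 to 5598 CPM in LrNK CD8KO, 9946 to 12119 CPM in LrNK B6, 13910 to 14667 CPM in cNK CD8KO and 13353 to 14531 CPM in cNK B6. Libraries of sorted cells can hold RNA of other cells, and in these bulk samples fewer cells of a type and less RNA per cell cannot be told apart. Of 10 hepatocyte genes, Alb included, all had counts in both LrNK groups with sums of 43.9 to 61.5 CPM in LrNK CD8KO and 31.4 to 61.1 CPM in LrNK B6, whereas 4 and 5 of them had counts in cNK CD8KO and cNK B6, with sums of at most 1.34 CPM.

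LrNK and cNK cells differed in most of the 9 receptor genes. The IL-18 receptor genes and Stat4 were lower in LrNK, and Il12rb1, Il21r and Ifngr2 were higher, under both labels. Between LrNK CD8KO and cNK CD8KO, 3 of 9 were called higher and 4 lower, where 15.4% of 17795 tested genes were called higher and 11.6% lower (27% in either direction). Between LrNK B6 and cNK B6, 3 of 9 were called higher and 3 lower, where 10.9% of 16456 tested genes were called higher and 9.83% lower (20.7% in either direction). The CPM of the groups did not overlap for 9 of 9 genes under the label CD8KO (61.7% of all genes) and for 8 of 9 under B6 (48.7% of all genes), Il1rl1 being the exception. The median log2 change over the 9 genes was -0.12 under CD8KO and -0.31 under B6, beside -0.05 and -0.08 over all genes tested.

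**Figure D1:**
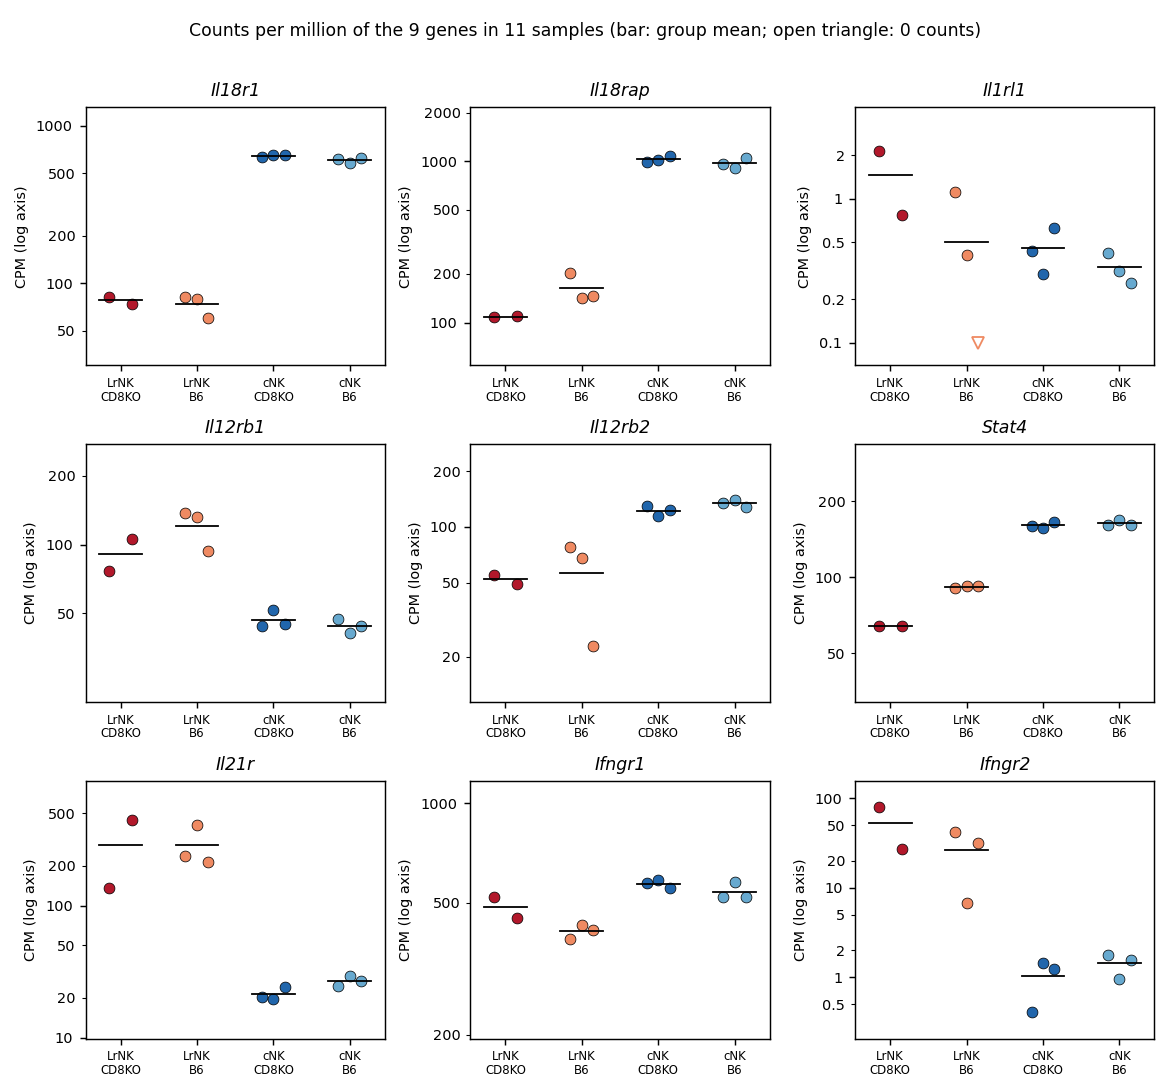
CPM of each receptor gene (log axis) in the 11 samples, grouped as LrNK CD8KO, LrNK B6, cNK CD8KO and cNK B6, with a bar at the group mean and an open triangle for a sample with 0 counts, drawn at the foot of the Il1rl1 panel. Il18r1 lay at 60.2 to 81.9 CPM in LrNK samples and at 578 to 653 CPM in cNK samples, and Ifngr2 at 6.84 to 79.4 CPM in LrNK and 0.412 to 1.78 CPM in cNK.

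The genes of the IL-18 receptor showed the largest falls of the 9. Il18r1 encodes IL-18Rα, the chain that binds the cytokine (ENSMUSG00000026070, chr1:40465552-40500854, plus strand, GRCm38). It had 81.9 and 73.7 CPM in LrNK CD8KO, against 628, 652 and 653 CPM in cNK CD8KO. In LrNK B6 it had 81.6, 79.5 and 60.2 CPM, against 615, 578 and 626 CPM in cNK B6. Every LrNK sample lay below every cNK sample, and the labels overlapped in LrNK. The log2 change of LrNK over cNK was -2.93 ± 0.10 (SE) under CD8KO, a level 7.61-fold lower (edgeR adjusted p = 0.000147). Under B6 it was -2.95 ± 0.17, or 7.74-fold lower (edgeR adjusted p = 0.000199).

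Il18rap encodes the accessory chain IL-18Rβ and lies 14507 bases downstream of Il18r1 (ENSMUSG00000026068, chr1:40515362-40551705, plus strand). It had 109 and 109 CPM in LrNK CD8KO, against 986, 1017 and 1078 CPM in cNK CD8KO. The LrNK B6 samples had 203, 141 and 145 CPM, against 966, 909 and 1039 CPM in cNK B6. Here the LrNK samples were again below all cNK samples, and those labelled CD8KO were below all LrNK B6 samples. LrNK was 8.64-fold lower than cNK under CD8KO (log2 -3.11 ± 0.11, edgeR adjusted p = 0.000164). It was 5.64-fold lower under B6 (log2 -2.50 ± 0.16, edgeR adjusted p = 0.000310).

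Il18r1 and Il18rap stand head to tail in the same orientation, and the sequences before their starts are shown because both genes fell together. The stretch before Il18r1 (chr1:40465416-40465551, plus strand, 136 bases) is the whole gap between the end of Il1rl1 and the start of Il18r1. The one before Il18rap is the 250 bases ahead of its start (chr1:40515112-40515361, plus strand). Both are from RefSeq on GRCm38.p6, written 5′ to 3′, and capitals mark the match to an ETS motif.
Il18r1 upstream gap: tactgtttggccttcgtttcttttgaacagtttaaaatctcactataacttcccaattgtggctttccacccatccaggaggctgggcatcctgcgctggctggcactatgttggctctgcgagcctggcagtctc
Il18rap upstream: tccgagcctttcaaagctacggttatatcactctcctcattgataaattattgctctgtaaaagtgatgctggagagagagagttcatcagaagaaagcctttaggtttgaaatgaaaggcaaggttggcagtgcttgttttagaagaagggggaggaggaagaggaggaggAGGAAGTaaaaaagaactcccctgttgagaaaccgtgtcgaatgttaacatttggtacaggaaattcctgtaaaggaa
Motifs were searched on both strands as the letters GGTGTGA (T-box), TGTGGT (Runx), AGGAAGT (ETS) and TTCNNNGAA (GAS, a STAT motif). In the Il18rap window the first base of the ETS match lies 78 bases before the start, and 7.69% of 32851 RefSeq promoter windows of 250 bases hold that motif. The Il18r1 gap held none of the 4 motifs. Windows of its length held the T-box, Runx, ETS and GAS letters in 1.72%, 7.62%, 4.69% and 3.64% of promoters.

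Il1rl1, the gene directly upstream of Il18r1, encodes the IL-33 receptor ST2 and is best known from type 2 innate lymphoid cells, mast cells and regulatory T cells (ENSMUSG00000026069, chr1:40429570-40465415, plus strand). It was near the limit of detection. It had 2.14 and 0.772 CPM in LrNK CD8KO, against 0.432, 0.302 and 0.629 CPM in cNK CD8KO. Among B6 samples LrNK had 1.10, 0.408 and 0 CPM, against 0.422, 0.316 and 0.262 CPM in cNK B6. The raw counts behind these values were 0 to 77 per sample. The log2 change of LrNK over cNK was 1.77 ± 0.73 under CD8KO and 0.67 ± 1.54 under B6, with edgeR adjusted p = 0.134 and 0.823. Without LrNK CD8KO sample 2+3 the CD8KO change was log2 2.28. That fit left replicate 1 alone in its group, so its effect size is given without its test. Of 10 mast cell and basophil genes, 9 had counts in LrNK CD8KO (Cma2 at 0) and 6 in LrNK B6 (Fcer1a, Tpsb2, Cma2 and Gata2 at 0). In cNK, 6 had counts under CD8KO (Mcpt8, Tpsb2, Gata2 and Prss34 at 0) and 5 under B6 (Fcer1a, Ms4a2, Tpsb2, Prss34 and Cd200r3 at 0). Their sums were 6.10 to 21.4 CPM in LrNK CD8KO, 8.60 to 10.8 CPM in LrNK B6, 1.91 to 2.40 CPM in cNK CD8KO and 2.20 to 2.81 CPM in cNK B6, and their part in the Il1rl1 values was not tested. Genes of type 2 innate lymphoid cells summed to 192 to 239 CPM in LrNK CD8KO (9 of 10 with counts, Il5 at 0) and 204 to 244 CPM in LrNK B6 (10 of 10), against 295 to 302 CPM in cNK CD8KO (7 of 10, Il13, Il5 and Areg at 0) and 274 to 310.5 CPM in cNK B6 (8 of 10, Il13 and Areg at 0). Klrg1 made up most of the cNK sums, with means of 180 CPM under CD8KO and 169 CPM under B6, against 4.17 and 3.93 CPM in LrNK. Gata3 and Rora moved against the sum. They averaged 91.3 and 45.6 CPM in LrNK CD8KO, against 77.1 and 24.0 CPM in cNK CD8KO. Under B6 they averaged 134 and 48.2 CPM in LrNK and 78.3 and 22.4 CPM in cNK. Il17rb was lower in LrNK B6 (0.131 CPM) than in cNK B6 (0.636 CPM). The part of these cells was not tested.

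The chains of the IL-12 receptor moved in opposite directions. Il12rb1 encodes IL-12Rβ1, a chain that the IL-12 and IL-23 receptors share (ENSMUSG00000000791, chr8:70808449-70821424, plus strand). It had 76.8 and 105 CPM in LrNK CD8KO, against 43.8, 51.5 and 44.8 CPM in cNK CD8KO. LrNK of B6 mice had 138, 132 and 93.3 CPM, against 47.3, 40.8 and 44.1 CPM in cNK B6. All LrNK samples were above all cNK samples. LrNK was 2.14-fold higher under CD8KO (log2 1.10 ± 0.19, edgeR adjusted p = 0.0117) and 2.92-fold higher under B6 (log2 1.55 ± 0.19, edgeR adjusted p = 0.00291). The CD8KO call was lost when any of the 3 cNK CD8KO samples was left out, with edgeR adjusted p = 0.0731 without replicate 1, 0.0506 without replicate 2 and 0.0721 without replicate 3, at log2 changes of 1.05, 1.17 and 1.06.

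Il12rb2 encodes IL-12Rβ2, the chain that recruits STAT4 (ENSMUSG00000018341, chr6:67291318-67376188, minus strand). It had 55.2 and 49.5 CPM in LrNK CD8KO, against 130, 114 and 123 CPM in cNK CD8KO. In LrNK B6 it had 78.0, 67.8 and 22.9 CPM, against 134, 140.0 and 129 CPM in cNK B6. LrNK samples lay below all cNK samples, and replicate 3 of LrNK B6 lay far below the other 2 of its group. LrNK was lower by 2.14-fold under CD8KO (log2 -1.10 ± 0.11, edgeR adjusted p = 0.00200), a call lost when all 4 groups shared 1 fit (log2 -1.12, edgeR adjusted p = 0.0763). Under B6 the log2 change was -1.16 ± 0.43 and missed the threshold (edgeR adjusted p = 0.108). Without LrNK B6 replicate 3 it was -0.80 and passed (edgeR adjusted p = 0.00486), as it did with DESeq2 (-1.16, adjusted p = 0.0180). The B6 change also passed when all 4 groups shared 1 fit. Of its exon bases, 1519 overlap Serbp1 on the opposite strand, and without the strand setting of the counting, reads there cannot be assigned. Serbp1 itself was not called in any comparison. In the 250 bases before the Il12rb2 start, the letters TTCTCAGAA match the GAS motif from 123 bases ahead, and 7.02% of promoter windows hold that motif.

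Stat4 encodes the transcription factor that the IL-12 receptor activates (ENSMUSG00000062939, chr1:51987148-52107189, plus strand). It had 64.3 and 64.1 CPM in LrNK CD8KO, against 159, 157 and 166 CPM in cNK CD8KO. The LrNK B6 values were 90.2, 92.0 and 92.4 CPM, against 161, 169 and 161 CPM in cNK B6. The 4 groups formed 3 levels with no overlap between them: LrNK CD8KO lowest, LrNK B6 next, and both cNK groups together above. LrNK was 2.29-fold lower than cNK under CD8KO (log2 -1.19 ± 0.10, edgeR adjusted p = 0.00119) and 1.69-fold lower under B6 (log2 -0.76 ± 0.10, edgeR adjusted p = 0.00412). Gm28177, a noncoding gene on the same strand, overlaps 1033 of its exon bases, and it was not called in any comparison.

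Il21r encodes the receptor chain specific to IL-21, a cytokine of activated CD4+ T cells that acts on NK, B and T cells (ENSMUSG00000030745, chr7:125603429-125633570, plus strand). It had 137 and 444 CPM in LrNK CD8KO, against 20.3, 19.7 and 24.4 CPM in cNK CD8KO. LrNK B6 had 238, 409.9 and 216 CPM, against 24.7, 29.1 and 27.1 CPM in cNK B6. All LrNK samples were above all cNK samples, and within LrNK the summed samples with many detected genes were the highest. LrNK was 15.1-fold higher under CD8KO (log2 3.91 ± 0.52, edgeR adjusted p = 0.00508) and 11.4-fold higher under B6 (log2 3.52 ± 0.31, edgeR adjusted p = 0.00100). The CD8KO value rests on unlike samples: the log2 change was 4.53 without LrNK CD8KO replicate 1 and 2.72 without sample 2+3. All 10 B cell genes, Ms4a1 included, had counts in each group. Their sum was 23.1 and 162 CPM in the LrNK CD8KO samples, 12.4 to 22.1 CPM in LrNK B6, 22.3 to 27.5 CPM in cNK CD8KO and 14.7 to 19.2 CPM in cNK B6. Single genes of that list did not move as the sum: Cd79b had 7.68 to 9.80 CPM in LrNK B6 and 1.58 to 1.94 CPM in cNK B6, whereas Cd22 had 2.02 to 5.84 CPM in LrNK B6 and 9.06 to 11.3 CPM in cNK B6. All 10 T cell genes, Cd3e and Trac included, also had counts in each group. They summed to 778 and 992 CPM in LrNK CD8KO and 1343 to 1661 CPM in LrNK B6, against 466 to 484 CPM in cNK CD8KO and 418 to 463 CPM in cNK B6, and the part of B or T cells in the Il21r difference was not tested.

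The 250 bases before the Il21r start (chr7:125603179-125603428, plus strand, RefSeq on GRCm38.p6) are shown because Il21r and Ifngr2 had the largest rises of the set. Capitals mark the match to the Runx letters on the minus strand, which begins 33 bases before the start; 14% of promoter windows hold that motif on either strand. The 250 bases before the RefSeq start of Ifngr2 (chr16:91546809-91547058, plus strand) held none of the 4 motifs. They are 74.0% G and C with 25 CpG steps, beside a median of 52.4% and 6 CpG steps over all promoter windows.
Il21r upstream: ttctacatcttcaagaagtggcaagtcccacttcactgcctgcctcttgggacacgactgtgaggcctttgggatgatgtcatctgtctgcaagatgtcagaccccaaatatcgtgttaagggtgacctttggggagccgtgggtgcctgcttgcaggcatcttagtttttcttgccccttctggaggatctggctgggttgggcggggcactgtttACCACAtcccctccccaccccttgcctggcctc
Ifngr2 upstream: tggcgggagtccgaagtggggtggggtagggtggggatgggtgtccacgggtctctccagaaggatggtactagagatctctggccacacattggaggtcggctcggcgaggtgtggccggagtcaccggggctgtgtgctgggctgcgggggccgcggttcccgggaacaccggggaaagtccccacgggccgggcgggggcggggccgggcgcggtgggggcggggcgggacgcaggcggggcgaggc

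The chains of the interferon-gamma receptor differed from each other. Ifngr1 encodes the chain that binds interferon-gamma (ENSMUSG00000020009, chr10:19591949-19610229, plus strand). It had 519.9 and 450.1 CPM in LrNK CD8KO, against 574, 586 and 556 CPM in cNK CD8KO. The B6 samples of LrNK had 389, 429 and 413 CPM, against 523, 577 and 521 CPM in cNK B6. LrNK samples lay below the cNK samples of their label, but by little. The log2 change was -0.12 ± 0.10 under CD8KO and -0.31 ± 0.12 under B6, and neither passed (edgeR adjusted p = 0.434 and 0.128). It passed under B6 when all 4 groups shared 1 fit (log2 -0.34, edgeR adjusted p = 0.0394) and without the LrNK B6 sample 2+4 (log2 -0.39, edgeR adjusted p = 0.0295). Without LrNK CD8KO replicate 1 the log2 change under CD8KO was -0.18. That fit left 1 sample in the group, so its effect size is given without its test.

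Ifngr2 encodes the signalling chain (ENSMUSG00000022965, chr16:91547072-91565623, plus strand). It had 79.4 and 27.1 CPM in LrNK CD8KO, against 0.412, 1.46 and 1.22 CPM in cNK CD8KO. In LrNK B6 it had 42.3, 6.84 and 31.3 CPM, against 1.78, 0.949 and 1.55 CPM in cNK B6. The lowest LrNK sample was above the highest cNK sample, and among LrNK samples the summed ones with many detected genes were the lowest of their groups. LrNK was 54.7-fold higher under CD8KO (log2 5.77 ± 0.66, edgeR adjusted p = 0.00325) and 19.5-fold higher under B6 (log2 4.29 ± 0.69, edgeR adjusted p = 0.00842). The B6 call was lost without cNK B6 replicate 2 (log2 4.01, edgeR adjusted p = 0.0512) or replicate 3 (log2 4.30, edgeR adjusted p = 0.0541). The CD8KO change was log2 4.85 without LrNK CD8KO replicate 1 and 6.27 without sample 2+3.

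Genes of neutrophils and monocytes also had higher means in LrNK than in cNK, except for Ccr2 under both labels and Ly6g under B6. Within LrNK the highest sum of the list and the lowest fell in the samples with the highest and lowest Ifngr2. The samples between did not keep the order. All 10 genes had counts in each group except for Ly6g, which was at 0 in LrNK B6. Their sum was 9710 CPM in LrNK CD8KO replicate 1 and 2882 CPM in sample 2+3. It was 2687 CPM in LrNK B6 replicate 1, 768 CPM in sample 2+4 and 4602 CPM in replicate 3, and 687 to 941 CPM in cNK samples. Lyz2, the lysozyme gene of myeloid cells, averaged 4687 CPM in LrNK CD8KO and 1965 CPM in LrNK B6, against 16.3 and 14.8 CPM in cNK CD8KO and cNK B6. The sum in cNK was mostly Ccr2, at 610 to 825 CPM. Its means were 513 CPM in LrNK CD8KO and 269 CPM in LrNK B6, below the 767 CPM in cNK CD8KO and 670 CPM in cNK B6. In LrNK B6 sample 2+4, where Ifngr2 was lowest, Lyz2 was at 520 CPM and Csf3r, the G-CSF receptor gene, at 10.8 CPM, against at most 18.9 and 1.03 CPM in any cNK sample. Taking only that sample for LrNK B6, the log2 change of Ifngr2 over cNK B6 was 2.41, with no test. The part of these cells in the Ifngr2 difference was not tested.

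**Figure D2:**
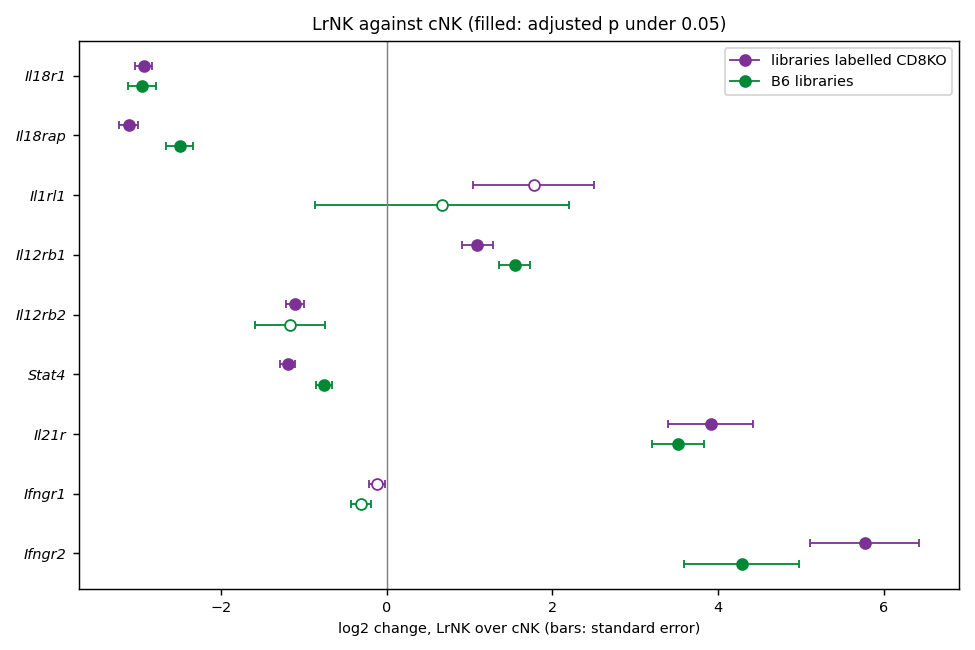
Log2 change of LrNK over cNK for each receptor gene, with standard errors, among libraries labelled CD8KO (purple) and B6 libraries (green); filled points have an edgeR adjusted p under 0.05. The points run from -3.11 for Il18rap to 5.77 for Ifngr2, both under CD8KO, and Ifngr1 lies nearest to 0 at -0.12 under the same label.

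Divided by exon length, the order of the 9 genes differed between the cell types. In both cNK groups it ran Ifngr1, Il18rap, Il18r1, Stat4, Il12rb2, Il12rb1, Il21r, Ifngr2 and Il1rl1, and no gene overlapped with its neighbour. In LrNK CD8KO the order was Ifngr1, Il21r, Il12rb1, Stat4, Il18r1, Il18rap, Ifngr2, Il12rb2 and Il1rl1, where the 5 genes from Stat4 to Il12rb2 each overlapped with the next. In LrNK B6 the order was Ifngr1, Il21r, Il12rb1, Il18rap, Stat4, Il18r1, Il12rb2, Ifngr2 and Il1rl1. Here Il12rb1 overlapped with Il18rap, Il18rap with Stat4, Il18r1 with Il12rb2, and Il12rb2 with Ifngr2. Ifngr1 led everywhere, at 170.3 ± 17.3 CPM per kb in LrNK CD8KO, 144 ± 7.07 in LrNK B6, 201 ± 5.36 in cNK CD8KO and 189.7 ± 11.2 in cNK B6 (SD, n = 2, 3, 3 and 3). Il21r was second in LrNK, at 87.5 ± 65.3 CPM per kb in CD8KO and 86.6 ± 32.0 in B6, and seventh in cNK, at 6.46 ± 0.77 in CD8KO and 8.11 ± 0.67 in B6.

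The ratio of the chains of each receptor, taken per kb within a sample, shows the same shifts. Il12rb1 over Il12rb2 was 1.29 and 1.97 in LrNK CD8KO and 1.64 to 3.77 in LrNK B6, against 0.313 to 0.418 in cNK CD8KO and 0.269 to 0.325 in cNK B6. The β1 chain was therefore the more abundant transcript in every LrNK sample and β2 in every cNK sample. Ifngr1 over Ifngr2 was 8.67 and 22 in LrNK CD8KO and 12.2 to 83.0 in LrNK B6, against 532 to 1845 in cNK CD8KO and 389 to 804 in cNK B6. Il18rap over Il18r1 stayed within 0.947 to 1.77 in all 11 samples. It was 0.947 and 1.06 in LrNK CD8KO and 1.27 to 1.77 in LrNK B6, against 1.11 to 1.18 in cNK CD8KO and 1.12 to 1.18 in cNK B6. These transcript ratios carry no test.

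**Figure D3:**
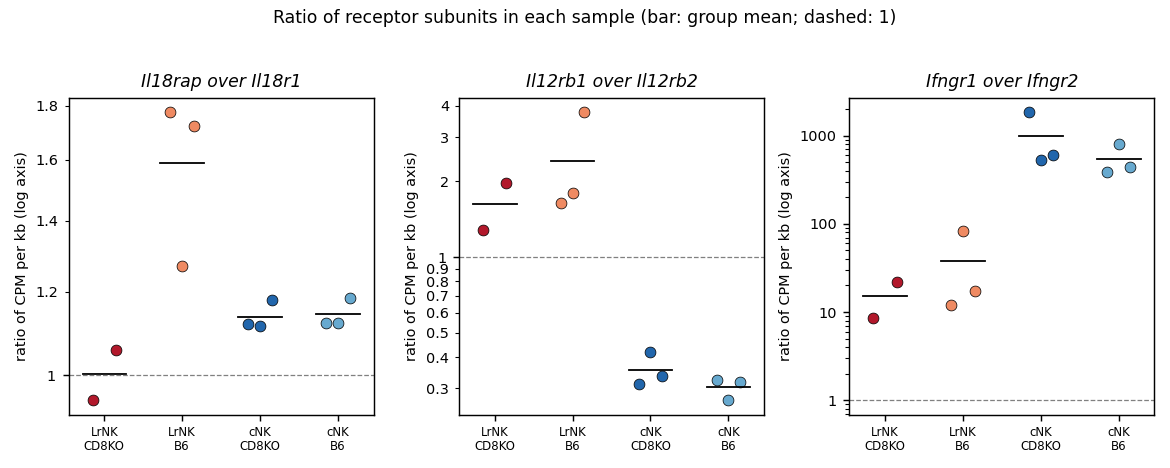
Ratio of CPM per kb (log axes) of Il18rap over Il18r1, Il12rb1 over Il12rb2 and Ifngr1 over Ifngr2 in each sample of LrNK CD8KO, LrNK B6, cNK CD8KO and cNK B6, with a bar at the group mean and a dashed line at 1. The IL-12 receptor ratio is above 1 in all LrNK samples (1.29 to 3.77) and below 1 in all cNK samples (0.269 to 0.418).

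Genes around these receptors were read from the same fits. Counts in their lists are to be read beside the shares of all genes called. These were 15.4% higher and 11.6% lower under CD8KO, and 10.9% higher and 9.83% lower under B6. Of 15 genes that IL-12 and IL-18 are known to induce in NK cells, 14 were called higher in LrNK CD8KO than in cNK CD8KO (median log2 change 3.25) and 12 in LrNK B6 than in cNK B6 (2.55), with none lower. Cish, a feedback inhibitor of cytokine receptors that this list and the list of negative regulators share, rose by log2 3.43 under CD8KO and 3.78 under B6. Gadd45g, which promotes interferon-gamma expression through p38, rose by log2 2.37 under CD8KO and 2.15 under B6. Socs3, also on both lists, rose by log2 2.27 under CD8KO, and Xcl1, a chemokine that attracts cross-presenting dendritic cells, by 3.26 under B6. The B6 count was 5 to 7 when any of the 3 cNK B6 samples was left out, and the CD8KO count was 9 when any of the 3 cNK CD8KO samples was left out. Those fits called 1021 to 1101 of 16963 to 17424 genes under B6 and 1688 to 1803 of 17117 to 17453 under CD8KO. The list includes genes that T and myeloid cells also induce, such as Tnf. The T cell sums above were higher in LrNK too, though single genes of that list differed. So were the myeloid sums, except in LrNK B6 sample 2+4 (768 CPM). The part of these cells was not tested.

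Of 11 negative regulators, 7 were higher and 1 lower under CD8KO (median log2 1.86), and 6 higher and 1 lower under B6 (1.32). Socs2, a suppressor of cytokine signalling, was higher by log2 1.86 under CD8KO and 3.01 under B6, and Socs1, which blocks interferon-gamma signalling, by 2.04 under CD8KO and 2.56 under B6. The gene that fell was Sigirr, an inhibitory receptor of the IL-1 family, under CD8KO (-0.46) and the phosphatase gene Ptpn11 under B6 (-0.41).

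Of 18 interferon-gamma targets, 11 were higher and 1 lower under CD8KO (median 0.74), and 10 higher and 2 lower under B6 (0.59). Ciita, the regulator of MHC class II genes, rose by log2 7.03 under CD8KO and 6.39 under B6. Under CD8KO the chemokine genes Cxcl9 and Cxcl10 rose by log2 5.51 and 5.08, and under B6 the interferon-induced GTPase gene Igtp by 1.68. Gbp7, another such GTPase, was lower by log2 -1.07 under CD8KO and -0.99 under B6, and Irf8, a transcription factor gene, by -1.09 under B6. Ciita, Cxcl9 and Cxcl10 are also expressed by dendritic cells and macrophages. Of 10 dendritic cell genes all had counts in LrNK CD8KO, LrNK B6 and cNK CD8KO, with Clec9a at 0 in cNK B6. Their sums were 829 to 894 CPM in LrNK CD8KO and 1037 to 1266 CPM in LrNK B6, against 792 to 851 CPM in cNK CD8KO and 792 to 887 CPM in cNK B6. Itgax, which NK cells express too, made up most of each sum. It had 554 and 659 CPM in LrNK CD8KO, below the 741 to 795 CPM in cNK CD8KO. Under B6 it was higher in LrNK (895 to 1080 CPM) than in cNK (741 to 848 CPM). Zbtb46 had 6.21 and 6.80 CPM in LrNK CD8KO, below the 7.90 to 9.33 CPM in cNK CD8KO. Its B6 groups overlapped, at 3.64 to 9.05 CPM in LrNK and 6.76 to 8.45 CPM in cNK. The other genes of the list had higher means in LrNK under both labels. Cd209a, a gene of monocyte-derived dendritic cells, had 29.0 and 85.0 CPM in LrNK CD8KO and 14.7 to 77.6 CPM in LrNK B6, against at most 0.140 CPM in any cNK sample, and Flt3, a receptor gene of dendritic cells, 10.3 and 25.7 CPM in LrNK CD8KO and 4.53 to 17.2 CPM in LrNK B6, against at most 0.175 CPM. Lyz2 was higher in LrNK as well, as given above, and the part of dendritic or other myeloid cells was not tested.

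With all samples kept, the counts in the lists that follow are to be read beside the shares of all genes called in either direction. These were 27% under CD8KO and 20.7% under B6. Counts with 1 cNK sample left out are to be read beside the fewer calls of those fits. They called 1688 to 1803 of 17117 to 17453 genes under CD8KO and 1021 to 1101 of 16963 to 17424 under B6. When any 1 of the 3 cNK samples of a label was left out, calls numbered 3 to 4 of 11 negative regulators under CD8KO and 3 under B6, and 5 of 18 interferon-gamma targets under CD8KO and 5 to 6 under B6. Of 4 tested IL-12 receptor partners and kinases, 3 rose and 1 fell under CD8KO and 2 rose and 1 fell under B6, Il23r not being tested. With 1 cNK sample left out, 1 call was made under each label. Tyk2, the kinase bound to IL-12Rβ1, fell by log2 -0.89 under CD8KO and -1.27 under B6, and Jak2, the kinase bound to IL-12Rβ2, rose by 0.91 and 0.92. Il27ra, an IL-27 receptor chain, rose by 0.37 and 0.68, and Il6st, its gp130 partner, by 1.98 under CD8KO. Of 7 genes of IL-21 signalling through the common gamma chain, 2 rose and 1 fell under CD8KO, and 1 rose and 1 fell under B6, with 2 calls under CD8KO and 1 under B6 without any 1 cNK sample. Jak1, the kinase that IL-21R and IFNGR1 both use, fell by log2 -1.64 under CD8KO and -1.55 under B6. Stat3, the main factor downstream of IL-21, rose by 0.43 under CD8KO.

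Of the interferon receptors and STATs, 5 of 9 tested rose and 1 fell under CD8KO, and 3 of 8 rose and 1 fell under B6, with 4 calls under CD8KO and 1 under B6 without any 1 cNK sample. Beside Jak1 and Jak2, which other lists hold too, Stat2 rose by log2 0.81 under CD8KO and Ifnar2, a chain of the type I interferon receptor, by 0.74 under B6. In the chain from MyD88 to NF-κB, 5 of 13 genes rose and 2 fell under CD8KO, and 3 rose and 2 fell under B6. Myd88, the adaptor of the IL-18 receptor, rose by 1.22 under CD8KO and 0.95 under B6, Irak2, a kinase of the chain, by 1.23 and 1.03, and Irak3, an inhibitory kinase of myeloid cells, by 4.67 and 2.90. Traf6, the ubiquitin ligase after the kinases, fell by -0.37 and -0.61. Map3k7 fell by -0.35 under CD8KO, and Nfkb1 by -0.42 under B6. In this chain 1 call was left under CD8KO and 0 under B6 when any cNK sample was left out.

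Among other genes of the IL-1 receptor family, 1 of 5 tested rose and 1 fell under CD8KO, and 0 of 3 rose and 1 fell under B6. Il1r2, a decoy receptor of neutrophils and monocytes, had 1116 counts over the LrNK CD8KO samples and 0 over the cNK CD8KO samples, which makes it at least 491-fold higher with the floor set at 3 counts over the group. The gene that fell was Sigirr under CD8KO and Il1rap, the accessory chain of the IL-1 and IL-33 receptors, under B6 (-1.27). Of 6 tested ligands and decoys, 3 rose under CD8KO and 1, Ifng, under B6, beside 15.4% and 10.9% of all genes called higher. Ifng itself averaged 221 CPM in LrNK CD8KO and 349 CPM in LrNK B6, against 88.9 CPM in cNK CD8KO and 118 CPM in cNK B6. LrNK was higher by log2 1.46 under CD8KO and 1.67 under B6 (edgeR adjusted p = 0.0387 and 0.0409), and the B6 call was lost when any of the 3 cNK B6 samples was left out. Ebi3 and Il27, which encode the parts of IL-27, rose by log2 4.08 and 2.98 under CD8KO.

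**Figure D4:**
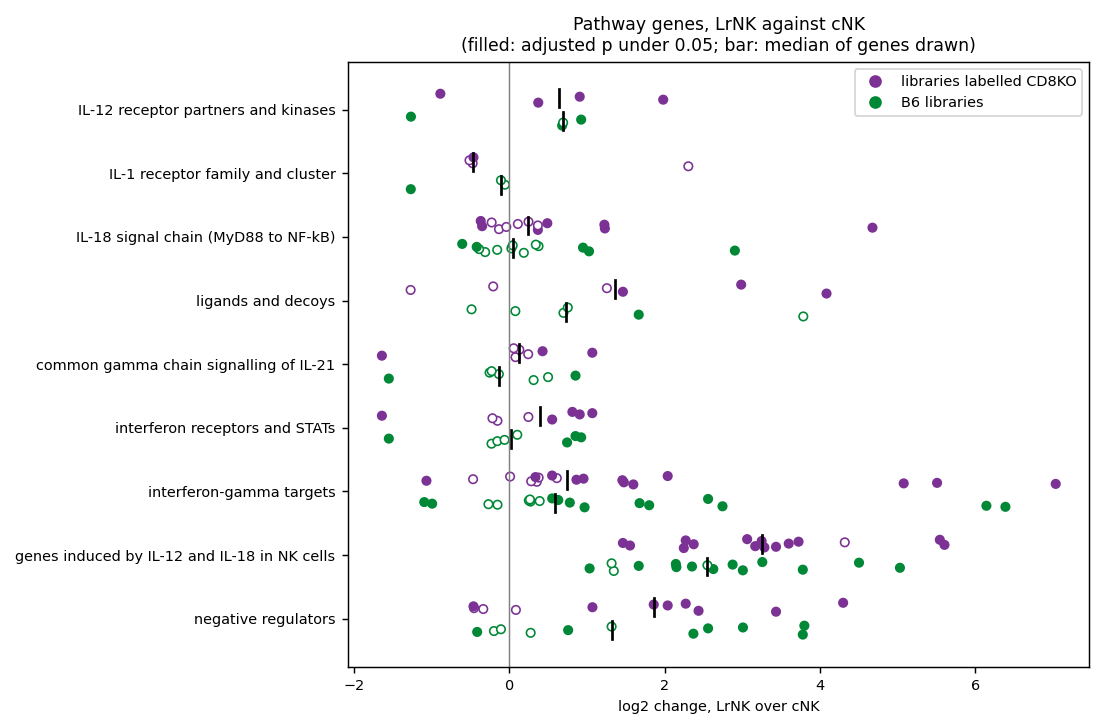
Log2 change of LrNK over cNK for the tested genes of 9 pathway lists, in libraries labelled CD8KO (purple) and B6 libraries (green), with filled points for an edgeR adjusted p under 0.05 and a bar at the median; Il1r2 and Ifnlr1, which had 0 counts in cNK, are not drawn. The genes induced by IL-12 and IL-18 all lie right of 0, with 14 of 15 filled under CD8KO and 12 of 15 under B6.

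Whether the label CD8KO went with a change of these receptors was asked within each cell type. In LrNK, 0 of 9 genes were called between CD8KO and B6, as were 0 of 16504 genes tested (0%). At an unadjusted p under 0.05 edgeR found 615 genes (3.73%), 2 of the 9 among them. DESeq2 called 62 genes (0.376%) and limma voom 0 (0%), none of the 9 in either. Il18rap was lower in LrNK CD8KO by log2 -0.56 ± 0.23 (edgeR unadjusted p = 0.0481, adjusted p = 1.00), and Stat4 by -0.50 ± 0.21 (edgeR unadjusted p = 0.0494, adjusted p = 1.00), in 2 of 2 CD8KO samples each. For these and for Ifngr1 (0.25 ± 0.22), which was higher, the groups did not overlap, where 18.3% of all genes did not. The NK gene sum was lower in LrNK CD8KO as well (4713 to 5598 CPM, against 9946 to 12119 CPM in LrNK B6). Of its genes, Gzma averaged 991 CPM in LrNK CD8KO and 3376 CPM in LrNK B6, and Gzmb 1121 and 3085 CPM. Eomes went the other way, at 7.83 and 2.30 CPM. Tbx21 overlapped between the groups, at 256 to 631 CPM and 400 to 734 CPM. The part of the NK gene sum in the receptor gene values was not tested. The other log2 changes were 0.09 ± 0.24 for Il18r1, 1.53 ± 2.26 for Il1rl1, -0.39 ± 0.30 for Il12rb1, -0.10 ± 0.49 for Il12rb2, 0.04 ± 0.56 for Il21r and 1.01 ± 0.70 for Ifngr2.

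Taken among samples with few detected genes, the log2 change of Il21r was -0.70, and among those with many it was 0.13. That of Ifngr2 was 1.15 and 2.01, that of Il12rb2 0.41 and -0.44, and that of Il18r1 0.25 and -0.09, so Il21r, Il12rb2 and Il18r1 had opposite signs in these sets. With 1 LrNK CD8KO sample in each set, these values have no test. No list of pathway genes held a called gene.

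In cNK, 0 of 9 receptor genes were called between CD8KO and B6, where 218 of 16619 genes were (1.31%, with 0.499% higher and 0.812% lower). At an unadjusted p under 0.05 edgeR found 2140 genes (12.9%), 2 of the 9 among them. Il21r had the smallest p. It was lower in all 3 cNK CD8KO samples (19.7 to 24.4 CPM) than in any cNK B6 sample (24.7 to 29.1 CPM), with a log2 change of -0.34 ± 0.09 (edgeR unadjusted p = 0.00206, adjusted p = 0.0939). DESeq2 called it (-0.34, adjusted p = 0.0187), as did edgeR without a filter on low counts (-0.34, adjusted p = 0.00331) and without cNK CD8KO replicate 3 (-0.43, adjusted p = 0.0345), while limma voom (adjusted p = 0.0926) and the fit of 4 groups did not. Those settings called 3.08%, 2.08%, 2% and 0.00518% of genes for DESeq2, no filter, voom and 4 groups. Il12rb2 followed, with -0.15 ± 0.06 (edgeR unadjusted p = 0.0316, adjusted p = 0.322). Il18r1 was higher by 0.08 ± 0.04 (edgeR adjusted p = 0.431), and for it and Il21r the groups did not overlap, where 18% of all genes did not. Il18rap (0.07 ± 0.05), Il12rb1 (0.08 ± 0.07), Stat4 (-0.04 ± 0.05) and Ifngr1 (0.07 ± 0.05) moved by less than Il21r, and the low-count genes Il1rl1 (0.43 ± 0.44) and Ifngr2 (-0.46 ± 0.38) had the widest errors.

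Some genes known to be induced by IL-12 and IL-18 were called by label in cNK. Of 14 tested, 6 were called lower in cNK CD8KO and 0 higher, beside 0.812% and 0.499% of all genes. Their median log2 change was -0.40 where the median over all genes was near 0. Whether IL-12 or IL-18 had a part in these changes was not tested. The chemokine genes Ccl3 and Ccl4 fell by log2 -1.07 and -0.81 and Ifng by -0.42 (edgeR adjusted p = 2.45e-06, 1.09e-05 and 0.00111). Ifng was also the 1 of 6 tested ligands and decoys that was called. None of these 6 calls remained when all 4 groups shared 1 fit, in which 1 gene of 19287 was called in this comparison. The other lists held no called gene.

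Tested directly, a difference of the label effect between cell types was called for 0 of 9 genes, beside 0.0415% of 19287 genes (0.00518% higher and 0.0363% lower). All 4 groups shared 1 spread in this fit, at 63.2%, so a lack of calls does not show equal effects. At an unadjusted p under 0.05 edgeR found 1628 genes (8.44%), 2 of the 9 among them. The difference of log2 changes, LrNK minus cNK, was -0.61 ± 0.20 for Il18rap (edgeR unadjusted p = 0.0113, adjusted p = 0.426) and -0.43 ± 0.13 for Stat4 (edgeR unadjusted p = 0.00814, adjusted p = 0.408). DESeq2 called Stat4 (-0.43, adjusted p = 0.0193), among 1.75% of genes, and limma voom called none of the 9 and 0.0311% of genes. The comparisons by label and those by cell type share samples, so their values are not independent of each other.

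**Figure D5:**
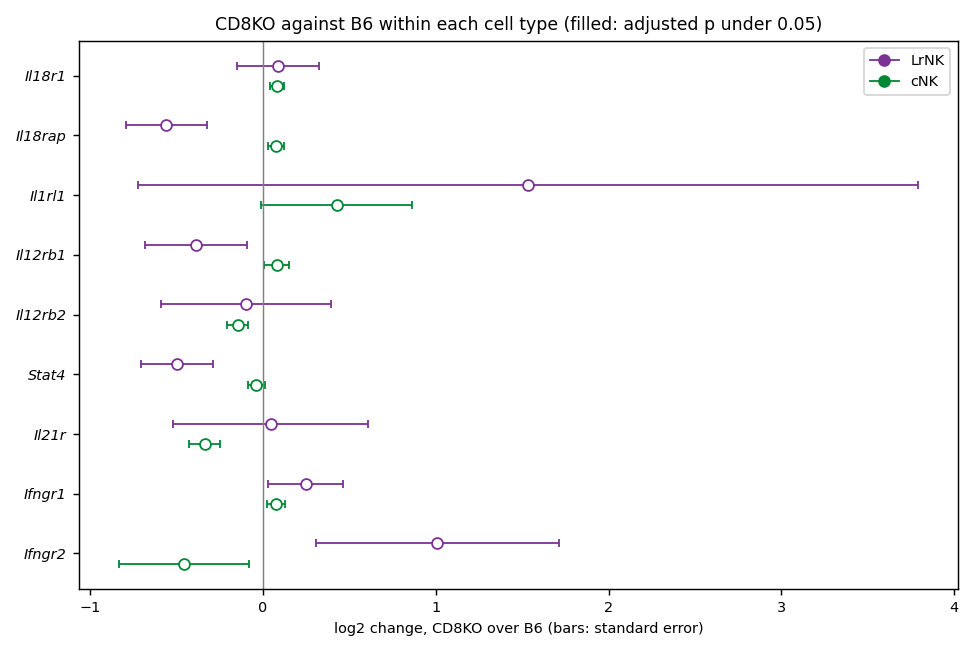
Log2 change of CD8KO over B6 for each receptor gene, with standard errors, in LrNK (purple) and cNK (green); open points did not reach an edgeR adjusted p under 0.05, and none of the 18 points is filled. Il18rap and Stat4 lie at -0.56 and -0.50 in LrNK and at 0.07 and -0.04 in cNK, and Il21r at 0.04 in LrNK and -0.34 in cNK.

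For each receptor gene the 3 protein-coding genes with the most similar pattern were sought among 7340, by Pearson's r of log2 CPM over the 11 samples, which share the split between LrNK and cNK. Nearest to Il18rap were Itga2 (r = 0.998), the integrin chain CD49b that marks conventional NK cells, Atp1b1 and Klhdc2, and nearest to Il18r1 were Kcnab2 (0.997), Klra7 and Lpin1. Il12rb2 was nearest to Ltn1 (0.992), Pea15a and Suclg2, and Stat4 to Hsd11b1 (0.996), Klri2 and Calm2. Il12rb1 was nearest to C1qtnf6 (0.985), Pdzd2 and Tasp1, and Il21r to Pde4b (0.989), Hic1 and Cltb. Ifngr1 was nearest to Mid1ip1 (0.981), Lpcat3 and Gstm1. Ifngr2 was nearest to Ctsh (0.987), Dpagt1 and Slc11a1, of which Ctsh and Slc11a1 are abundant in phagocytes, and Il1rl1 to Abhd17c (0.935), Phf2 and Foxn3. Among the 9 genes themselves, r was 0.99 between Il18r1 and Il18rap, -0.97 between Il18r1 and Il21r, and -0.71 between Il12rb1 and Il12rb2.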

How the data were processed

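RNA of sorted NK cells was sequenced from TruSeq libraries. The deposited values are raw counts per Ensembl gene, 1 file per library, with no normalization. Reads were aligned with HISAT2 2.1.0 to GRCm38, per the submitters' processing notes; how strand was treated and which tool counted were not given in the sources used here. Symbols, locations and exon lengths are from GENCODE M21, which matched 54495 of 54532 identifiers.

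Library pairs with a chi-square per degree of freedom under 4, and 3 times below other pairs of their group, were summed (2.67 for LrNK CD8KO 2 and 3, 3.04 for LrNK B6 2 and 4, at least 196 for other LrNK pairs). Genes passing filterByExpr (minimum count 10, minimum total 15) were tested in R 4.3.3 with edgeR 4.0.16, TMM scaling and the quasi-likelihood test, on only the groups compared; the test of the difference between cell types used all 4 groups. p-values were adjusted by Benjamini-Hochberg over all genes tested. Errors after log2 changes are standard errors worked back from the edgeR test, as the absolute log2 change over the square root of its F statistic. CPM uses library totals, and CPM per kb divides by merged exon length. The test was tried on simulated counts. Even numbers made up 49.5 to 65.2% of counts from 1 to 20 in a library, so 1 count may not be 1 independent read. Alternatives used DESeq2 1.42.0, limma 3.58.1 (voom with sample quality weights), other scaling, no filter, separate libraries, a replicate block and each sample left out. All 9 receptor genes are named in every comparison; of each pathway list, up to 3 called genes per direction with the smallest p are named, and others were added for what they are known to do. Some list genes are counted with their list and not reported here by name. The receptor genes and lists were chosen with earlier results of these data known. Promoter windows are RefSeq's on GRCm38.p6, found for 8 of 9 genes (not for Il12rb1), and stop before the start of the transcript.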

Additional observations from a re-analysis of the deposited data

Results flagged for a closer look

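The effect of the label CD8KO on Cd8a differed between the cell types by the direct test of that difference. The log2 change of CD8KO over B6 was 1.08 ± 0.25 in LrNK and 7.35 ± 0.12 in cNK, and the difference, LrNK minus cNK, was -6.25 ± 0.21 (edgeR adjusted p = 4.58e-07). Cd8a was higher in samples labelled CD8KO in 2 of 2 LrNK and 3 of 3 cNK samples, and LrNK B6 carried 20.1 to 20.5 CPM where cNK B6 carried at most 0.578 CPM. Il12rb2 lies 4 Mb from Cd8a on the same chromosome and was not called by label in either cell type. None of the 9 receptor genes met a rule for a closer look. Groups of 3 samples or fewer were not examined for outlying samples.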

How the results depend on the processing

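Between LrNK and cNK, all receptor genes except Il1rl1 kept their direction under every alternative run. The Il1rl1 log2 change under B6 was -0.10 with limma voom, -0.43 with the replicate block and -0.53 to 1.23 with a sample left out. Other values near 0 changed sign as well, always without a call. For LrNK CD8KO against LrNK B6, Il21r was -0.21 with limma voom and -0.34 with the replicate block, and -1.15 to 0.69 with a sample left out (-0.11 and -0.13 without LrNK B6 replicates 1 and 3). Il18r1 was -0.053 with the block and -0.049 to 0.20 with a sample left out, and Il12rb2 was -0.47 to 0.15 (0.12 without LrNK B6 sample 2+4). For the label effect in LrNK minus that in cNK, Il18r1 was -0.055 with 13 separate libraries, -0.010 with voom and -0.0036 with the block, and -0.10 to 0.14 with a sample left out (0.039 without LrNK B6 replicate 1). Il12rb2 was -0.057 with separate libraries, -0.018 with the block and -0.30 to 0.29 with a sample left out, and Il21r was -0.79 to 1.02, lowest without LrNK CD8KO sample 2+3. The cause of these changes was not tested.

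Counts of called genes moved more than the receptor genes did. For LrNK CD8KO against LrNK B6 the 0 genes became 259 with no filter, 22 with 13 separate libraries, 138 with 4 groups in 1 fit, 62 with DESeq2 and 180 with the replicate block, and stayed at 0 with any sample left out. For cNK by label the 218 became 590 with no filter, 1 with 4 groups in 1 fit, 512 with DESeq2, 332 with voom and 355 with the block, and 71 to 254 with a sample left out. Receptor genes called there were 1 (Il21r) with no filter, DESeq2 or the block (log2 -0.34, adjusted p = 0.0464), and 0 to 1 with a sample left out. For LrNK B6 against cNK B6 the 3414 became 1801 with the block and 6856 with only LrNK samples of few detected genes, and 1021 to 6856 with a sample left out (4554 without LrNK B6 replicate 3), where 5 to 7 receptor genes were called. For LrNK CD8KO against cNK CD8KO the 4804 became 2162 with the block and 1688 to 13004 with a sample left out (10872 without LrNK CD8KO replicate 1), where 6 to 8 were called. The test of LrNK minus cNK for the label had 8 genes, 68 with separate libraries, 337 with DESeq2 (1 receptor gene, Stat4) and 5 to 645 with a sample left out (253 without LrNK CD8KO sample 2+3, 55 without LrNK B6 replicate 3). Where a group keeps 1 sample, that sample is assumed to vary like the others.

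Replicate numbers shared between groups were not treated as pairs, since the labels give them no meaning. Deviations of same-numbered samples correlated at 0.46 and 0.69 (2 pairs) for LrNK by label, -0.03, -0.06 and 0.19 for cNK by label, 0.05 and 0.10 for LrNK against cNK under CD8KO, and 0.14, -0.08 and -0.09 under B6. The lowest counts were those of Il1rl1 (at most 77 in a sample) and of Ifngr2 in cNK (20 to 122), and no test varied the depth.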
